A study of Mus musculus with 6 samples.

Results

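The genes described here encode the machinery of mitosis: the cyclin-CDK switch, the mitotic kinases, the spindle checkpoint, the kinetochore, spindle motors, condensin, and the transcription factors that drive this program. The list holds 53 genes. Their open chromatin was read from ATAC-seq, in which a transposase inserts sequencing adapters where DNA is accessible. A peak, a region called as accessible, was counted to a gene when it overlapped the gene body. A peak overlapping no gene was counted to a listed gene when that was the nearest protein-coding gene within 100 kb. This gave 216 of the 97124 deposited peaks, at 52 of the 53 genes; Kif4, a spindle motor gene on the X chromosome, had no peak. Of the 216 peaks, 72 lay within 1 kb of an end of their gene and are called gene-end peaks. Another 69 lay deeper in a gene body and 75 between genes, at a median of 17898 bp from the gene. Being nearest is a matter of position; no target was measured.

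Cells were bone marrow B-cells from PEtg mice, as the labels name the strain without spelling it out, and all 6 samples share that genotype and the H2B-GFP reporter. H2B-GFP is a histone fused to green fluorescent protein that is diluted as cells divide. The quiescent samples (n = 3) were H2B-GFP high and the proliferating samples (n = 3) H2B-GFP low. The labels give no age and no driver of the reporter. They leave unsaid whether each sample is a different mouse; p-values therefore reflect the spread among these samples, part of which may be technical. By estimate, quiescent samples 1, 2 and 3 held 28188262, 14021117 and 18603738 reads within peaks, while proliferating samples 1, 2 and 3 held 8052980, 31661897 and 48841963. All 7 B-cell marker genes examined, Pax5 and Ebf1 among them, had a gene-end peak. The summed signal of the strongest such peak of each was 10029, 10367 and 11032 in quiescent samples and 10427, 12007 and 12749 in proliferating samples, so the groups overlapped. Of their 17 tested gene-end peaks, 1 was lower and none higher past the threshold used below, which 2.8% of gene-end peaks outside the mitosis list passed. Of 8 marker genes each, 3 of T and NK cells, 3 of myeloid cells and 2 of erythroid cells and megakaryocytes had a gene-end peak. Only 7 of the 8 T and NK genes were among the protein-coding genes searched, so the remaining gene could not have a peak. Counting peaks at any position, 6, 6 and 5 genes of these 3 lists had one. The myeloid genes Elane, Mpo, Ly6g, Csf3r and S100a8 had no gene-end peak. The summed gene-end signal of the 3 myeloid genes with a peak differed with the groups, at 1348, 1422 and 1242 in quiescent samples and 914, 749 and 844 in proliferating samples. The sums of the T and NK genes and of the erythroid genes overlapped between the groups. Past the same threshold, 1 of 3 tested gene-end peaks of the myeloid genes was higher, and 1 of 5 of the T and NK genes. None of 5 of the erythroid genes passed, and no peak of these 3 lists was lower. The part of these markers in the results below was not tested.

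Mitotic genes are transcribed late in the cell cycle. In mammalian cells their promoters often carry a CHR element together with CCAAT boxes. The DREAM complex binds such promoters and represses them in quiescence, and B-Myb and FoxM1 bind them with the MuvB core when cells cycle. CCAAT boxes are bound by NF-Y, and E2F-type sites by E2F proteins. An accessible promoter is not the same as a transcribed gene, and no RNA was measured here.

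RefSeq promoters of build GRCm38.p6, from 250 bases before to 50 bases after the start, were listed for 43 of the 53 genes. They were searched on both strands for the CHR element TTTGAA, for the box CCAAT and for 4 E2F-type words (TTTGGCGC, TTTCCCGC, TTTGCCGC and TTTCGCGC), none of which is contained in another. CHR was found in 26 of the 43 genes (60.5%), against 18.4% of 17449 other protein-coding genes. CCAAT was found in 31 (72.1%), against 42.2%. Both were found in 23 (53.5%), against 7.28%. An E2F-type word was found in Cdk1, Cenpm, Ncapd2 and Ncapg (9.3%), against 3.27% of the other genes. Each of the 4 E2F-type words holds a CG pair, a C followed by a G. Promoters of the mitosis genes held a median of 24 CG pairs, against 13 in those of the other genes. The part of this composition in the shares was not tested. These shares describe letters in a window; the absence of a match says nothing of whether a factor binds. Aurkb, Ccna2, Cdc25c, Foxm1, Incenp, Kif20a, Smc4, Spc24, Tpx2 and Wee1 were not among the 43 genes.

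**Figure D1:**
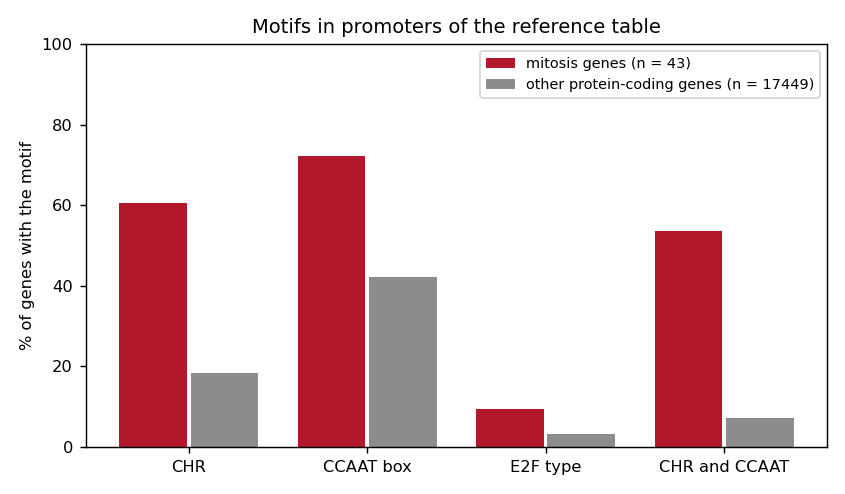
Share of genes (y axis, %) whose RefSeq promoter holds CHR, CCAAT, an E2F-type word, or CHR and CCAAT together (x axis). Red bars are the 43 mitosis genes with a listed promoter and grey bars the 17449 other protein-coding genes; the red bar is the taller in each pair, with 60.5% against 18.4% for CHR.

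The bases just before the start of 8 genes are shown because each stretch lies in or overlaps a gene-end peak described below, and because they range from repeated CHR and CCAAT elements in Mki67 and Cdk1, and repeated CCAAT in Top2a, to none of the searched words in Birc5. Capitals mark CHR (TTTGAA, or TTCAAA on the other strand), CCAAT (or ATTGG) and, in Cdk1, the E2F-type word TTTCGCGC. Each is written 5′ to 3′ on the gene's strand. They lie at chr7:135716380-135716579 (minus strand), chr5:45669725-45669924 (plus strand), chr15:102296143-102296292 (plus strand), chr19:37376232-37376381 (plus strand), chr4:118437344-118437493 (minus strand), chr10:69352913-69353062 (minus strand), chr11:99024190-99024339 (minus strand) and chr11:117849087-117849236 (plus strand).
Mki67: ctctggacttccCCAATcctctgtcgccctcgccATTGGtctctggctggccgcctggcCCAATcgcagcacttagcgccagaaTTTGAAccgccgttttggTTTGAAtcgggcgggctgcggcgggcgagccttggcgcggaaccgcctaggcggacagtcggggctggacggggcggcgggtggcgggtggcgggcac
Ncapg: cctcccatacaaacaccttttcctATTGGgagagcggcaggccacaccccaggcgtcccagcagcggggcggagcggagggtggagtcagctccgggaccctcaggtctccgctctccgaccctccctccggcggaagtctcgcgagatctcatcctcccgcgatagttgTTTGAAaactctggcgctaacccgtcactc
Espl1: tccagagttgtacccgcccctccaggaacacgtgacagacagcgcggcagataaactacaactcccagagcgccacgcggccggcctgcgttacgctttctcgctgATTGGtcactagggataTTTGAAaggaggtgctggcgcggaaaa
Kif11: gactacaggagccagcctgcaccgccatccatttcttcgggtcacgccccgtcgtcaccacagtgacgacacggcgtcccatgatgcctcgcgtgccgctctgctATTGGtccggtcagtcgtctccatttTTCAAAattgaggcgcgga
Cdc20: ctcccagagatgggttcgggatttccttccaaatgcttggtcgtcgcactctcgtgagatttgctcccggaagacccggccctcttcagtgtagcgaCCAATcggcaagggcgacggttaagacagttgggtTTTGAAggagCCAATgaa
Cdk1: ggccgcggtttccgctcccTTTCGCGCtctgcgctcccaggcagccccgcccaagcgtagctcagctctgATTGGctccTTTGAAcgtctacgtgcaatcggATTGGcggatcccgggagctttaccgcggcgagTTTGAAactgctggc
Top2a: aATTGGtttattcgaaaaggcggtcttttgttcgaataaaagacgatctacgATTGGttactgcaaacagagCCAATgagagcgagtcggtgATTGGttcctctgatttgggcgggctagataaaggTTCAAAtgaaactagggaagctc
Birc5: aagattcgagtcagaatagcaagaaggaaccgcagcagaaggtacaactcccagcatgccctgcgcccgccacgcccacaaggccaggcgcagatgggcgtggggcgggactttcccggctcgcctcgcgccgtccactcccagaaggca
In Mki67 the CHR matches begin 116 and 98 bases before the start, downstream of 3 CCAAT matches. In Espl1, Kif11 and Ncapg a single CHR lies 27, 19 and 30 bases before the start, each with 1 CCAAT match further upstream.

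Gene-end peaks of the mitosis genes leaned toward lower signal in quiescent cells, with few single peaks past the test. Signal is the authors' scaled value per peak, in arbitrary units. Log2 fold changes are quiescent minus proliferating on log2(signal + 1). Adjusted p-values are from limma over 87411 peaks with Benjamini-Hochberg adjustment and a threshold of 0.05. Of 70 gene-end peaks that passed the filter on low signal, out of 72, the median log2 fold change was -0.22 (quartiles -0.39 and -0.01) and 53 lay below 0 (75.7%). The 15754 tested gene-end peaks of other genes had a median of -0.08, with 60.3% below 0. In 23 of the 70 (32.9%) every quiescent sample lay below every proliferating sample, which held for 16.5% of the other gene-end peaks, and in 2 every quiescent sample lay above.

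At gene ends, 1 peak was higher (Bub1b) and 1 lower (Foxm1) past the threshold, 2 of 70 (2.86%) against a background of 2.8%, so the share of calls was near the background. With the replicate number as a block, 2 were higher and 5 lower (10%), against a background of 8.77%. Without quiescent sample 2 or 3, or proliferating sample 2 or 3, none of the 70 passed in limma (9 to 13 at an unadjusted p under 0.05). Without quiescent sample 1, 1 passed, and without proliferating sample 1, 4 passed. In bulk samples, fewer cells with an open site and less opening per cell cannot be told apart.

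The distance from other gene-end peaks depended on the scaling. It was -0.14 in the median with the authors' scaling. With reads recovered from the signal it was -0.04: the mitosis genes' median was -0.33 against -0.30 when reads were scaled to totals, -0.12 against -0.08 with TMM scaling and -0.09 against -0.06 with median-of-ratios scaling. Scaling to totals itself put the median of all peaks at -0.26. The cause of the difference between the scalings was not tested.

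**Figure D2:**
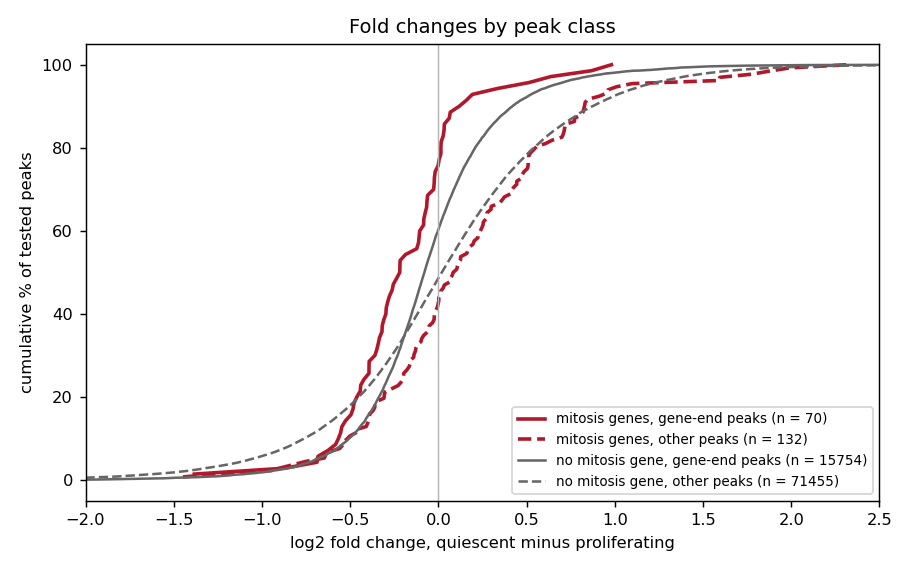
Cumulative share of tested peaks (y axis, %) by log2 fold change, quiescent minus proliferating (x axis), for gene-end and other peaks of the mitosis genes and of all other genes. The curve for the 70 gene-end peaks of mitosis genes, median -0.22, lies left of that for other gene-end peaks, median -0.08; peaks away from gene ends had medians of 0.09 and 0.02, and 0.09 turned to -0.13 when recovered reads were scaled to totals.

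Samples within a group were not alike. The median deviation of the mitosis gene-end peaks from their mean over the 6 samples was -0.14, -0.05 and -0.16 log2 units for quiescent samples 1, 2 and 3, against -0.05, 0.15 and 0.22 for proliferating samples 1, 2 and 3. Proliferating sample 1, the shallowest library, thus lay level with quiescent sample 2, and the deepest, proliferating sample 3, lay highest. Other gene-end peaks ran the same way over a smaller range, at -0.06, -0.01 and -0.03 in quiescent samples and -0.06, 0.06 and 0.14 in proliferating samples. The part of depth in this order was not tested.

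**Figure D3:**
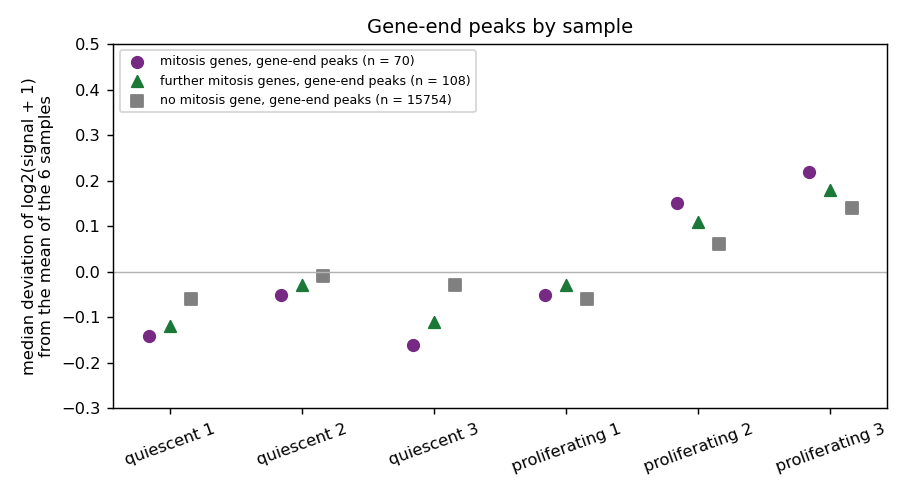
Median deviation of log2(signal + 1) from the mean of the 6 samples (y axis) in each sample (x axis), for gene-end peaks of the mitosis genes, of further mitosis genes and of other genes. Proliferating samples 2 and 3 sit at 0.15 and 0.22 for the mitosis genes, while proliferating sample 1 sits at -0.05, level with quiescent sample 2.

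The strongest gene-end peak of each of the 52 genes leaned the same way, with 42 of 52 below 0 (80.8%), a median of -0.25, and 19 in which the groups did not overlap, each time with quiescent samples lower. Among all tested gene-end peaks of other genes, 60.3% lay below 0, and 16.5% had every quiescent sample lower. That background was not limited to the strongest peak of each gene. None of the 52 passed in limma (14 at an unadjusted p under 0.05), and 4 were lower with the replicate block. Of the 15754 tested gene-end peaks of other genes, 814 were lower with the block, and 2175 had an unadjusted limma p under 0.05. Of 53 peaks within 1 kb of a listed gene start, 42 lay below 0 (79.2%), and none passed (11 at an unadjusted p under 0.05, 4 lower with the block). Of 12077 tested start peaks of other genes, 60.9% lay below 0, and 102 were higher and 146 lower in limma. Among these 12077, 1502 had an unadjusted limma p under 0.05 and 563 were lower with the block. Start peaks of genes with both CHR and CCAAT had a median of -0.27 (28 peaks of 22 genes), and those of genes without both a median of -0.22 (25 peaks of 19 genes). Among other genes these medians were -0.10 and -0.08. The difference between promoter classes was not tested.

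**Figure D4:**
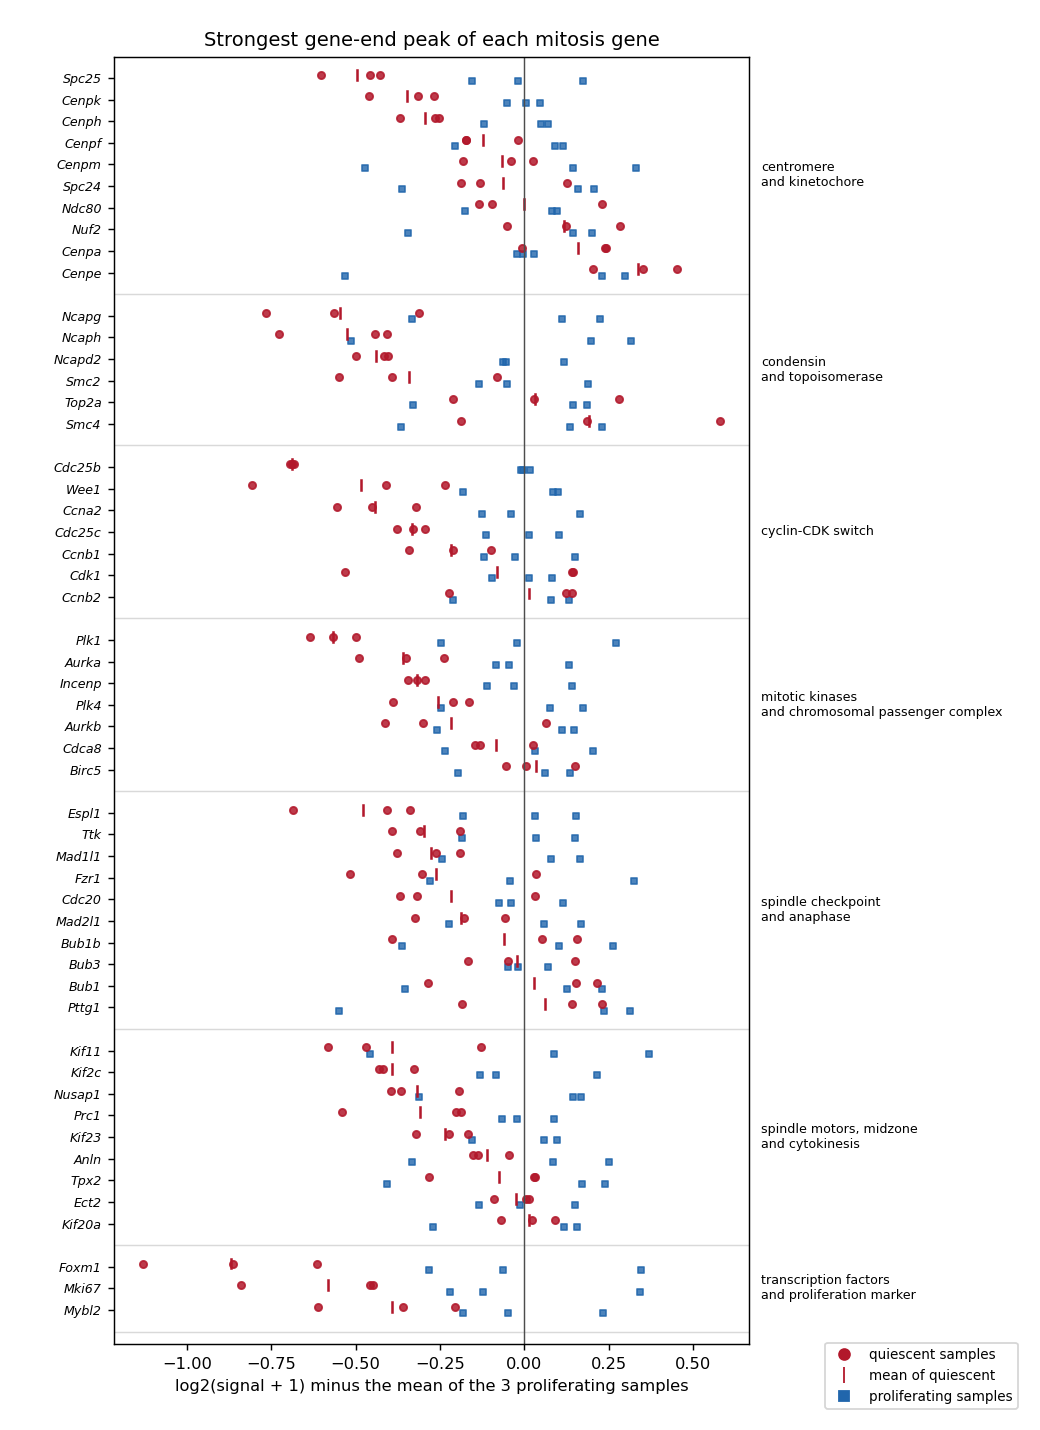
Strongest gene-end peak of each of the 52 mitosis genes, as log2(signal + 1) minus the mean of the 3 proliferating samples (x axis), by role (rows). Red circles are quiescent samples, red ticks their mean and blue squares proliferating samples; 42 of the 52 red ticks lie left of 0.

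Gene-end peaks of the cyclin-CDK genes, which set entry into mitosis, had a median of -0.39 over 10 tested peaks, with 8 below 0. Under the 3 scalings of recovered reads the median was -0.42, -0.21 and -0.19. Gene-end peaks of other genes were also below 0 there, with medians of -0.30, -0.08 and -0.06. The start peak of Cdc25b, a phosphatase that activates CDK1, held 84.8, 84.1 and 84.5 signal units in quiescent samples and 136, 138 and 136 in proliferating samples (chr2:131186102-131187080). The groups were far apart and each was tight. The log2 fold change was -0.69 ± 0.19 SE and did not pass (adjusted p = 0.0643), but it did with the replicate block (limma, adjusted p = 0.0345). A weaker Cdc25b peak beside it held 35.7, 13.8 and 20.1 in quiescent samples and 34.8, 31.7 and 39.5 in proliferating samples, with overlapping groups.

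The peak of Ccna2, cyclin A, which lies at the end of Bbs7 as well, was lower in every quiescent sample without passing: 238, 217 and 202 against 334, 273 and 290 in proliferating samples (-0.44 ± 0.17 SE, adjusted p = 0.149). Cdc25c, another CDK1-activating phosphatase, averaged 632 ± 18.3 in quiescent and 798 ± 59.9 in proliferating samples (SD, n = 3 each; -0.33 ± 0.13 SE, adjusted p = 0.147). Ccnb1, cyclin B1, averaged 225 ± 19.0 in quiescent and 261 ± 25.4 in proliferating samples, and its groups overlapped (adjusted p = 0.475). At Cdk1, the mitotic kinase itself, the start peak that holds the sequence above did not differ beyond its spread, with 196, 196 and 123 in quiescent and 166, 179 and 188 in proliferating samples (-0.08 ± 0.23 SE, adjusted p = 0.861). A weaker start peak beside it (chr10:69351911-69352705), added after its values were seen, held 49.9, 43.9 and 41.8 in quiescent and 87.8, 61 and 55.2 in proliferating samples. There the groups did not overlap, and it did not pass (-0.55 ± 0.27 SE, adjusted p = 0.253). A separate peak 5951 bp outside Cdk1 was higher in quiescent cells (chr10:69328743-69329195), at 103, 107 and 138 against 53.1, 52.0 and 65.4 in proliferating samples (1.01 ± 0.23 SE, adjusted p = 0.0377). It did not pass with recovered reads scaled to totals (0.64).

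The mitotic kinases and the chromosomal passenger complex build the spindle and correct chromosome attachment. Their 8 gene-end peaks had a median of -0.27, with 7 below 0 and none past the threshold in limma (2 at an unadjusted p under 0.05, none with the block). Under the 3 read scalings the median was -0.37, -0.16 and -0.13, against -0.30, -0.08 and -0.06 for gene-end peaks of other genes. Plk1, polo-like kinase, held 133, 140 and 146 in quiescent samples and 174, 250 and 204 in proliferating samples (-0.57 ± 0.20 SE, adjusted p = 0.12, and 0.0503 with the block). The groups did not overlap. Aurka, Aurora A, shares its peak with Cstf1 and held 247, 267 and 224 in quiescent against 345, 297 and 305 in proliferating samples (-0.36 ± 0.16 SE, adjusted p = 0.214).

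Incenp, the scaffold of the passenger complex, had the strongest gene-end peak of the group, with 662, 675 and 686 in quiescent and 780, 824 and 928 in proliferating samples (-0.32 ± 0.13 SE, adjusted p = 0.163). Aurkb, Aurora B, averaged 445 ± 79.9 in quiescent and 516 ± 76.8 in proliferating samples, with overlapping groups (adjusted p = 0.514). Birc5, survivin, whose promoter held none of the searched words, averaged 212 ± 15.8 in quiescent and 207 ± 24.3 in proliferating samples (SD, n = 3 each; 0.03 ± 0.18 SE, adjusted p = 0.932).

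Condensin compacts chromosomes and topoisomerase II alpha untangles them. Their 7 tested gene-end peaks had a median of -0.34, with 5 below 0. With the 3 read scalings it was -0.35, -0.14 and -0.12, against -0.30, -0.08 and -0.06 for gene-end peaks of other genes. Ncapg, a condensin I subunit, had values in opposite directions at its start and in its body. Its start peak (chr5:45668325-45670364) held 666, 911 and 766 in quiescent and 898, 1322 and 1223 in proliferating samples, so that the groups overlapped by 1 sample each. It did not pass (-0.55 ± 0.18 SE, adjusted p = 0.103) but passed with the block (adjusted p = 0.00678), where each quiescent sample was set against the proliferating sample of its number.

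Within the body of Ncapg, 4983 bp from the nearer gene end, a peak was higher in quiescent cells (chr5:45674874-45675631). It held 292, 246 and 234 in quiescent samples and 69.6, 54.3 and 68.5 in proliferating samples, so every quiescent sample exceeded every proliferating one by a wide margin (1.99 ± 0.21 SE, adjusted p = 0.00566). Top2a, topoisomerase II alpha, held 941, 1122 and 797 in quiescent and 735, 1020 and 1050 in proliferating samples at its start, with no difference beyond the spread (0.03 ± 0.18 SE, adjusted p = 0.937).

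The kinetochore ties chromosomes to spindle microtubules. The 14 gene-end peaks had a median of -0.07 with the authors' scaling, with 9 below 0, but 0.06 with TMM and 0.09 with median-of-ratios scaling of reads, so no common direction held. Of their 27 tested peaks away from gene ends, 6 were higher and none lower past the threshold in limma. An unadjusted limma p under 0.05 was reached by 12. Among such peaks of other genes, 4.59% were higher and 2.99% lower. With the block 8 were higher and 1 lower, where 11.6% of the peaks of other genes were higher and 8.8% lower. The 6 lie 2 each at Ndc80 and Cenph and 1 each at Cenpe and Cenpa, so they do not count as 6 independent observations. Spc25, an outer kinetochore subunit, was lower at its start only with the block: 305, 345 and 338 in quiescent against 524, 416 and 458 in proliferating samples (-0.50 ± 0.16 SE, adjusted p = 0.0903, and 0.0388 with the block). The gene was named after its values were seen. Cenpa, the centromeric histone, had the strongest gene-end peak, with 2399, 2845 and 2852 in quiescent and 2402, 2373 and 2457 in proliferating samples (0.16 ± 0.10 SE, adjusted p = 0.392; it passed with TMM scaling of reads, at 0.52).

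Ndc80, the microtubule-binding subunit of the outer kinetochore, had 2 higher peaks away from its ends. A body peak (chr17:71511293-71513354) held 1828, 1394 and 1655 in quiescent and 1045, 904 and 790 in proliferating samples (0.83 ± 0.15 SE, adjusted p = 0.0177). A peak 5820 bp outside the gene (chr17:71489593-71490280) held 424, 405 and 432 in quiescent and 288, 202 and 236 in proliferating samples (0.81 ± 0.17 SE, adjusted p = 0.0306). In both, the groups did not overlap. A stronger peak outside Ndc80 (chr17:71484807-71487291) held 2345, 2089 and 2359 in quiescent and 1765, 1976 and 1958 in proliferating samples. Its groups did not overlap, and it did not pass (0.25 ± 0.11 SE, adjusted p = 0.182). The strongest gene-end peak of Ndc80, shared with Spdya, averaged 384 ± 55.2 in quiescent and 383 ± 39.6 in proliferating samples (adjusted p = 0.998). Another gene-end peak (chr17:71494357-71495177) held 345, 74.4 and 78.2 in quiescent and 201, 52.3 and 65.1 in proliferating samples (0.51 ± 0.65 SE, adjusted p = 0.678).

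Cenph, of the inner kinetochore, had a higher body peak (chr13:100762168-100763294) with 1030, 902 and 796 in quiescent and 652, 468 and 436 in proliferating samples (0.82 ± 0.18 SE, adjusted p = 0.0327). A second Cenph peak, 2394 bp outside the gene, was also higher (0.72 ± 0.16 SE, adjusted p = 0.036). Cenpe, a kinetochore motor, had a strong higher peak 19777 bp outside the gene (chr3:135191263-135192786), with 1762, 2194 and 2580 in quiescent and 1305, 1303 and 1178 in proliferating samples (0.77 ± 0.15 SE, adjusted p = 0.0207). No sample of one group reached into the other at these 3 peaks. At Cenpa, 4148 bp outside the gene, a further peak held 148, 259 and 434 in quiescent and 77.8, 61.8 and 123 in proliferating samples, with a wide spread among quiescent samples (1.60 ± 0.39 SE, adjusted p = 0.0451). It did not pass with reads scaled to totals (1.28) or with precision weights (1.45). A weak gene-end peak of Cenpm (chr15:82244943-82245241) averaged 25.9 ± 11.3 in quiescent and 14.4 ± 9.25 in proliferating samples (0.98 ± 0.67 SE, adjusted p = 0.41). The start peak of Cenpe (chr3:135211553-135212827) averaged 390 ± 33.6 in quiescent and 318 ± 91.4 in proliferating samples (0.34 ± 0.23 SE, adjusted p = 0.413). The groups overlapped at both of these gene-end peaks.

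The spindle checkpoint holds anaphase until chromosomes are attached. Together with the anaphase genes, its 13 gene-end peaks had a median of -0.06, with 9 below 0, which turned to 0.01 with TMM and 0.04 with median-of-ratios scaling of reads. Bub1b, BubR1 of the checkpoint, gained signal at 627 bp from its end, far from its start (chr2:118642219-118643587), with 498, 447 and 474 in quiescent and 351, 289 and 276 in proliferating samples (0.64 ± 0.16 SE, adjusted p = 0.0458). The groups did not overlap. A weaker peak beside it averaged 110 ± 17.1 in quiescent and 60.3 ± 11.2 in proliferating samples and passed only with the block (adjusted p = 0.0254).

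The start peaks of Bub1 (0.03 ± 0.20 SE, adjusted p = 0.952), a checkpoint kinase, Mad2l1 (-0.19 ± 0.15 SE, adjusted p = 0.487), the checkpoint inhibitor, and Cdc20 (-0.22 ± 0.17 SE, adjusted p = 0.472), its target, had overlapping groups. Espl1, separase, which cuts cohesin at anaphase, showed the largest rise among the 202 tested peaks, at a body peak (chr15:102311481-102312164) with 108, 134 and 195 in quiescent and 18.6, 33.7 and 33.8 in proliferating samples (2.31 ± 0.33 SE, adjusted p = 0.00973). Its start peak averaged 127 ± 15.7 in quiescent and 177 ± 20.6 in proliferating samples (-0.48 ± 0.20 SE, adjusted p = 0.181), and was added after its values were seen.

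Mad1l1 is a long gene with 26 peaks, of which 23 were tested, 1 higher and 2 lower. The 2 lower peaks held 278, 326 and 308 in quiescent against 508, 542 and 479 in proliferating samples (-0.74 ± 0.15 SE, adjusted p = 0.0233; chr5:140208265-140209449), and 143, 199 and 184 in quiescent against 347, 352 and 309 in proliferating samples (-0.95 ± 0.19 SE, adjusted p = 0.0226; chr5:140223351-140224316). The higher one, chr5:140207020-140207356, was weak: 29.2, 36.2 and 37.1 in quiescent and 5.5, 11 and 12.6 in proliferating samples, with 3 reads in the shallowest library (1.78 ± 0.44 SE, adjusted p = 0.0453). It did not pass with reads scaled to totals (1.01) or by TMM (1.23). The strongest Mad1l1 peak, chr5:140263339-140266560, averaged 1908 ± 248 in quiescent and 2288 ± 219 in proliferating samples. Its groups overlapped (-0.27 ± 0.13 SE, adjusted p = 0.241). Pttg1, securin, had 24 peaks, 1 of them lower, 73480 bp outside the gene (chr11:43342084-43346764). It held 3050, 2438 and 2510 in quiescent and 4079, 3736 and 3800 in proliferating samples (-0.54 ± 0.11 SE, adjusted p = 0.0246), and did not pass with reads scaled to totals (-0.30), by TMM (-0.11) or by median of ratios (-0.10). Another strong Pttg1 peak (chr11:43357746-43359696) averaged 1924 ± 343 in quiescent and 2379 ± 489 in proliferating samples, with overlapping groups. It passed as lower only with the block (-0.30 ± 0.17 SE, adjusted p = 0.325, and 0.0417 with the block). Its sign changed with TMM scaling of reads (0.13).

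Spindle motors, midzone and cytokinesis proteins push the spindle poles apart and divide the cell. The 12 gene-end peaks had a median of -0.17, with 9 below 0 and none past the threshold in limma (none at an unadjusted p under 0.05, none with the block). Their medians under the 3 read scalings were -0.28, -0.06 and -0.03, against -0.30, -0.08 and -0.06 for gene-end peaks of other genes. Kif11, the bipolar spindle motor, held 326, 413 and 302 in quiescent and 329, 584 and 481 in proliferating samples at its start (-0.39 ± 0.23 SE, adjusted p = 0.333), the groups overlapping through proliferating sample 1. Kif20a, a midzone motor, averaged 1212 ± 67.0 in quiescent and 1209 ± 188 in proliferating samples at a peak shared with Brd8 (adjusted p = 0.965).

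Peaks away from the gene ends rose at 2 genes of this group. Tpx2, which activates Aurora A on the spindle, had a body peak (chr2:152880711-152881597) with 235, 94.3 and 142 in quiescent and 74.5, 22.6 and 35.3 in proliferating samples; number 1 was highest in both groups (1.88 ± 0.46 SE, adjusted p = 0.0444). Anln, anillin of the contractile ring, had a peak 5878 bp outside the gene (chr9:22324232-22325336) with 1496, 1846 and 1712 in quiescent and 1087, 1292 and 1136 in proliferating samples (0.52 ± 0.13 SE, adjusted p = 0.0435).

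Foxm1 and Mybl2 (B-Myb) activate mitotic genes, and Mki67 encodes Ki-67, a coat of mitotic chromosomes used as a proliferation marker. All 6 tested gene-end peaks of these 3 genes lay below 0, with a median of -0.60, and in all 6 every quiescent sample lay below every proliferating sample. That held for 16.5% of gene-end peaks of other genes. The 6 peaks are neighbouring pairs at the 3 genes, so they do not count as 6 independent observations. Their medians were -0.79, -0.58 and -0.55 under the 3 read scalings, against -0.30, -0.08 and -0.06 for gene-end peaks of other genes. The Foxm1 peak past the threshold (chr6:128363476-128363689), within 1 kb of Rhno1 as well, was weak: 23.9, 17.0 and 15 in quiescent and 50.8, 57.6 and 40.8 in proliferating samples (-1.38 ± 0.33 SE, adjusted p = 0.0429). It did not pass when the weakest 25% of peaks were left out.

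The neighbouring Foxm1 peak held 30.1, 24.8 and 35.9 in quiescent and 45.4, 70.7 and 53 in proliferating samples (-0.87 ± 0.30 SE, adjusted p = 0.121). Mki67 had 2 peaks of this kind. The one that holds the listed start and the sequence above averaged 84.9 ± 18.0 in quiescent and 130 ± 10.3 in proliferating samples (SD, n = 3 each; -0.63 ± 0.23 SE, adjusted p = 0.138). The other averaged 146 ± 21.7 in quiescent and 221 ± 48.4 in proliferating samples, and passed with the block only (-0.58 ± 0.22 SE, adjusted p = 0.145, and 0.0485 with the block). Mybl2 held 366, 436 and 485 in quiescent and 657, 493 and 540 in proliferating samples (-0.39 ± 0.17 SE, adjusted p = 0.201).

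Counted over all roles, peaks away from gene ends included 12 higher and 3 lower of 132 tested. The higher share was 9.09%, against a background of 4.59% of the peaks of other genes, and the lower share 2.27%, against 2.99%. With the block, 19 were higher (14.4%, background 11.6%) and 9 lower (6.82%, background 8.8%). Over all tested peaks 6.72% passed. The median of the 132 was 0.09, against 0.02 for the peaks of other genes, and it turned to -0.13, against -0.24, when recovered reads were scaled to totals. By gene, counting only peaks past the threshold in limma, 9 had only higher ones away from the ends (Anln, Cdk1, Cenpa, Cenpe, Cenph, Espl1, Ncapg, Ndc80 and Tpx2), Pttg1 only a lower one, Mad1l1 both, and 20 none. Peaks that did not pass could go the other way. A Cenpa peak (chr5:30690591-30691269), named after its values were seen, was lower in every quiescent sample. It passed only with the block (limma, adjusted p = 0.113, and 0.00734 with the block).

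The 17 calls, 13 higher and 4 lower, changed in number with the libraries used. Without quiescent sample 2, 1 member peak passed, without quiescent sample 3 none (45 at an unadjusted p under 0.05), and without proliferating sample 2 or 3, 2 each. Without quiescent sample 1, 12 passed, and without proliferating sample 1, 22. The whole table behaved alike: 5876 peaks passed in all, and none without quiescent sample 3 (16512 at an unadjusted p under 0.05). With the replicate block 35 member peaks passed. No sign of the 17 changed under any alternative.

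**Figure D5:**
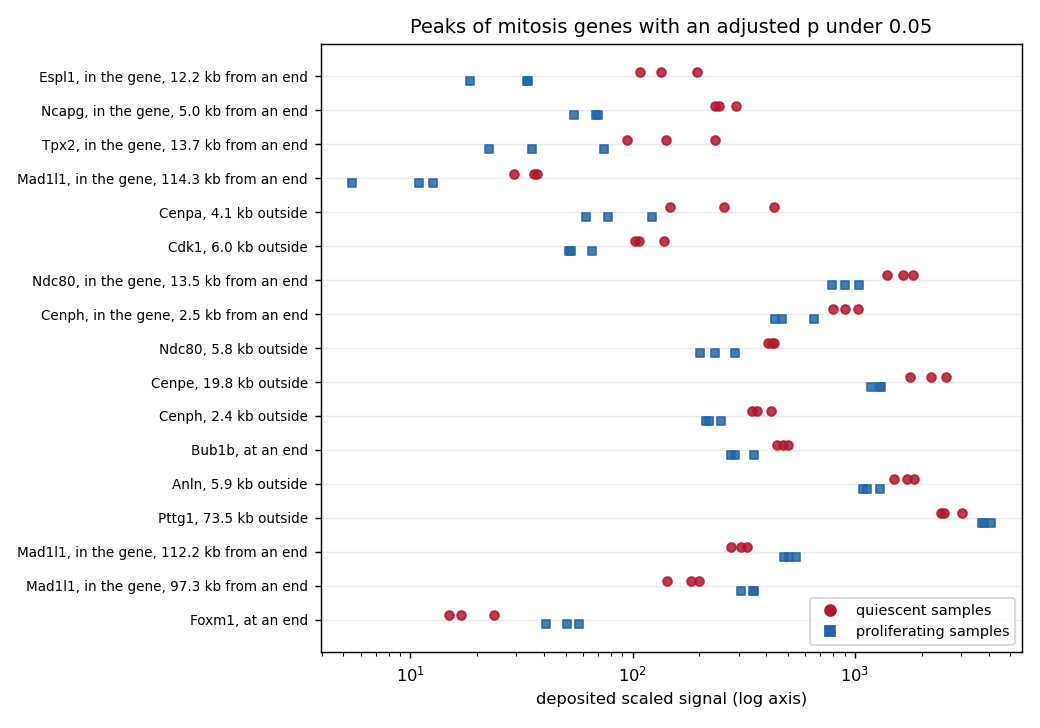
Deposited scaled signal (x axis, log scale) in each sample of the 17 peaks of mitosis genes with an adjusted p under 0.05 (rows), quiescent samples in red and proliferating samples in blue. At each of the 17 peaks the 3 quiescent samples lie on one side of the 3 proliferating samples; 13 are higher and 4 lower in quiescent cells.

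Further genes of mitosis that are not on the list, such as other kinetochore, anaphase-promoting complex, cohesin and spindle genes, were tested at their ends as well. Of 84 such genes, 83 had a peak, and their 108 tested gene-end peaks had a median of -0.14 with 86 below 0 (79.6%). All tested gene-end peaks of genes not on the list had a median of -0.08, with 60.3% below 0. Under the 3 read scalings the medians of the 108 were -0.29, -0.07 and -0.05, against -0.30, -0.08 and -0.06. They were thus no lower than that background there. None was higher and 2 were lower in limma (14 at an unadjusted p under 0.05), and 10 were lower with the block. Among all 15754 tested gene-end peaks of genes not on the list, 2.8% passed in limma and 8.77% with the block, in either direction. Of these, 233 were lower in limma and 814 lower with the block. Both peaks of further mitosis genes that were lower in limma were named after their values were seen. Hjurp, the chaperone of CENP-A, averaged 1112 ± 98.8 in quiescent and 1830 ± 232 in proliferating samples (SD, n = 3 each; -0.71 ± 0.13 SE, adjusted p = 0.0197; chr1:88275949-88278651). Ckap2, a spindle-associated protein, averaged 210 ± 17.8 in quiescent and 355 ± 43.6 in proliferating samples (SD, n = 3 each; -0.75 ± 0.17 SE, adjusted p = 0.0352; chr8:22184818-22186250). Without quiescent sample 2 or 3, or proliferating sample 3, none of the 108 passed in limma (7 to 13 at an unadjusted p under 0.05). Without quiescent sample 1 or proliferating sample 2, 1 passed, and without proliferating sample 1, 4.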

How the data were processed

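ATAC-seq was run on 3 quiescent and 3 proliferating samples. The authors deposited 1 shared list of 97124 peaks on mm10, with a signal for every sample, with widths of 200 to 13023 bp (median 547). Per the submitters' processing notes, Bowtie2, SAMtools and MACS2 were used; for versions, settings, the transposase shift and the counting, details were not given in the sources used here. Per the labels' protocols, a commercial kit was used and each sample was sequenced in repeated runs. Deposited signal sums were 20904407 to 21518630.

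The signal is not a raw count. Its low values lie on steps worth 1 read that change smoothly with peak strength. Reads were recovered by following these steps, and between 99.3% and 100.0% of values of 1 to 1000 reads lay within 0.1 of a whole number. Median reads per peak were 76, 42 and 56 for quiescent samples 1, 2 and 3, against 27, 112 and 179 for proliferating samples 1, 2 and 3. No columns were duplicates. As the scaling differs between weak and strong peaks, a test for counts was not the main one.

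Groups were compared on log2(signal + 1) with limma 3.58.1 (R 4.3.3), letting the variance follow intensity. The 10% of peaks with the lowest mean signal were left out, which kept 87411. P-values were adjusted by Benjamini-Hochberg over these, with a threshold of 0.05. Fold changes on this scale understate the change of weak peaks. The fitting code was tested on simulated data. Python 3.11.15, numpy 2.4.6, pandas 2.3.3 and matplotlib 3.10.9 were used. Genes and promoters came from RefSeq GRCm38.p6, whose gene table has no exons. Coordinates are printed as deposited. Of the peaks near a listed gene, 7 that overlap only a non-coding gene were left out.

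Deviations of same-numbered samples from their group means correlated at 0.43, 0.29 and 0.21, over peaks, for numbers 1, 2 and 3, all positive, so the numbers were taken to pair the samples. Differently numbered pairs ranged from -0.36 to 0.22: quiescent 2 with proliferating 3 reached 0.22 and quiescent 3 with proliferating 2 reached 0.15, so the numbers do not single out pairs 2 and 3. A fit with the number as a block is given as counts of peaks, and singly where it changes the call of a named peak. Other single peaks whose call it changed are only in the counts, unless printed above. Alternatives were other pseudocounts, filters, scalings, definitions of gene ends, each sample left out and, chosen after seeing the data, precision weights.

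Named peaks were every member peak past the threshold; the strongest gene-end peak of 16 canonical genes and of each role; the 5 highest and 5 lowest gene-end fold changes; and the 5 strongest peaks away from gene ends. A marker gene is not reported here. The members and lists were chosen with earlier results of these data known.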

Additional observations from a re-analysis of the deposited data

How the results depend on the processing

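Other pseudocounts and no filter on low signal left 17 member peaks past the threshold, and all 17 kept their sign in every alternative in which they were tested. With the replicate block, 15999 of all tested peaks passed, 35 member peaks, 7 member gene-end peaks, 28 other member peaks, 1382 gene-end peaks of other genes and 10 of further mitosis genes. With reads scaled to totals these counts were 13005, 37, 12, 25, 1439 and 9, and the medians were -0.33 for member gene-end peaks, -0.13 for other member peaks, -0.30 for other gene-end peaks and -0.29 for further mitosis genes. With TMM scaling 11637 of all peaks passed, 26 member peaks, 5 member gene-end peaks and 1061 other gene-end peaks. With median-of-ratios scaling the counts were 11689, 27, 5 and 1062, and the member gene-end median was -0.09. With precision weights 9187 of all peaks passed, 4 member gene-end peaks and 740 other gene-end peaks. Leaving out 1 sample gave 0 to 8241 of all peaks, 0 to 22 member peaks, 0 to 4 member gene-end peaks, 0 to 18 other member peaks (median 0.07 to 0.17), 0 to 660 other gene-end peaks and 0 to 4 of further genes. With the weakest 25% left out, 1 member gene-end peak passed. Within 3 kb of a gene end, 4 member peaks, 911 of other genes and 4 of further genes passed. At listed starts these were 0 for members and 248 for other genes. Some named peaks that did not pass in the main fit changed sign: with TMM and median-of-ratios scaling, Pttg1 (chr11:43357746) 0.13 and 0.15, Ndc80 (chr17:71525951) 0.12 and 0.15, Mad1l1 (chr5:140263339) 0.11 and 0.13 and Mad2l1 0.01 and 0.04. With reads scaled to totals they were Birc5 (-0.15), Cenpm (-0.14) and Bub1 (-0.07). With precision weights they were Top2a (-0.05), Birc5 (-0.00), Kif20a (-0.05) and Bub1 (-0.08). Leaving out 1 sample gave -0.20 to 0.14 at the Cdk1 start, -0.13 to 0.15 at Top2a, -0.06 to 0.10 at Birc5, -0.21 to 1.10 at the Ndc80 peak chr17:71494357, -0.12 to 0.07 at chr17:71525951, -0.12 to 0.09 at Kif20a and -0.15 to 0.18 at Bub1. The cause of these shifts was not tested. In the weakest decile, 1 read was worth 1.07, 2.22 and 1.47 signal units for quiescent samples 1 to 3. For proliferating samples 1 to 3 it was worth 1.32, 0.63 and 0.35. Over all peaks, 419, 1424 and 599 held 0 for quiescent samples 1 to 3. For proliferating samples 1 to 3 these counts were 204, 90 and 4. Neither measure was largest in proliferating sample 1, the shallowest library, and both were smallest in proliferating sample 3, the deepest. In the strongest decile, 1 read was worth 0.73, 1.48 and 1.12 signal units for quiescent samples 1 to 3. For proliferating samples 1 to 3 it was worth 2.72, 0.68 and 0.45 there, so that proliferating sample 1 had the largest value. The part of depth in these values was not tested.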
